A study of Mus musculus with 8 samples.

Results

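Colony stimulating factors and secreted growth factors were followed in pancreatic stellate cells (PSCs), fibroblast-like cells that live in the pancreas. The list held 10 genes: the colony stimulating factors Csf3 and Csf1, the fibroblast growth factors Fgf23, Fgf2 and Fgf7, the hepatocyte growth factor gene Hgf, the vascular endothelial growth factors Vegfa, Vegfb and Vegfc, and the platelet-derived growth factor chain Pdgfa. These genes were selected by symbol with earlier results of the 3 comparisons known, so their differences are given as a description, and the p-values printed for them, which come from the fit across all genes, are not independent evidence. Of the 10 genes, 9 were among the 12160 genes counted, and Fgf2 was not analysed here.

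Colony stimulating factors drive the formation and survival of myeloid cells: CSF3 (G-CSF) acts on neutrophils and their precursors, and CSF1 (M-CSF) on monocytes and macrophages. FGFs, HGF, VEGFs and PDGFs are ligands of receptor tyrosine kinases. FGF7 and HGF are made by stromal cells and act mainly on epithelium, VEGFs act on blood and lymphatic vessels, PDGF-AA acts on fibroblasts through PDGFRA, and FGF23 is a hormone, made mainly in bone, that lowers blood phosphate. Fibroblasts and stellate cells of pancreatic tumors are a known source of such signals to neighbouring cells.

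The PSCs were 1 immortalized mouse line, kept in growth factor reduced Matrigel, a basement membrane gel, as separate domes. They received growth medium for 4 days and a test medium for a further 4 days. Test media came from KPC organoids, 3D cultures of mouse pancreatic cancer cells: 3 domes were given conditioned medium (CM) of organoids carrying an shRNA against Brca2 (shBrca2-CM), and 3 domes CM of organoids carrying a non-targeting shRNA (shControl-CM). Another 2 domes were given control medium, which the sample titles and the study's Results call DMEM and the treatment labels and its Methods call the cells' own CM. By its Methods, organoid CM was collected in DMEM with less serum than the growth medium held. If the control was growth medium, serum also differed between control and CM domes, and its part was not tested. Brca2 was silenced in the organoids and not in the cells sequenced, so the silencing could not be checked in these libraries. Nothing in the labels ties domes to separate days, and p-values measure the spread between domes of 1 line.

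Each library sampled the 3′ ends of mRNA. Total counts lay between 655996 and 1095534 in the shBrca2-CM group and between 1093609 and 1624392 in the shControl-CM group, and were 4623846 and 5476988 in the control libraries. Levels are given as CPM (counts scaled to library size), with edgeR's TMM factors over the 8 libraries. A count of 3, taken as the floor, ranged from 0.521 CPM in the deepest library to 4.34 CPM in the shallowest; floors and counting intervals cover counting error only. All 10 fibroblast markers listed were counted, and their summed level was 4020 to 4530 CPM with shBrca2-CM, 4940 to 5860 CPM with shControl-CM and 7160 to 8750 CPM with control medium. Its members moved in opposite directions: with shControl-CM against control medium 4 were called higher, among them Dcn (log2 fold change 4.50) and Pdpn (3.12), and 5 lower, among them Vim (-3.38) and Col1a2 (-2.48), and with shBrca2-CM 3 were higher and 5 lower. Between the conditioned media edgeR called 0 higher (2 by DESeq2 and at an unadjusted p under 0.05) and 3 lower (Dcn, Lum and Pdpn; DESeq2 did not call Lum). Of 8 epithelial markers, 3 were counted (Krt18, Krt19 and Muc1), with sums of 59.3 to 94.1, 57.7 to 70.6 and 37.0 to 41.7 CPM, respectively. Krt18 and Muc1 were higher with each CM than with control medium, Krt19 was lower with each, and Krt19 was higher with shBrca2-CM than with shControl-CM (log2 fold change 2.12, edgeR adjusted p = 0.0632), a call that DESeq2 did not make (adjusted p = 0.167 by the likelihood ratio test). Cd68 was the only leukocyte marker counted of 7, at 8.71 to 18.6 CPM with shBrca2-CM, 14.1 to 21.1 CPM with shControl-CM and 3.87 to 4.69 CPM with control medium. Of 6 endothelial markers, Tek and Vwf were counted, and their summed level stayed between 0 and 4.98 CPM. These marker levels moved with the groups, and their part in the growth factor values was not tested. Depth also differed between the groups. With all libraries thinned to the smallest total, the log2 fold changes between the conditioned media were -2.70 for Csf3, 2.42 for Fgf23 and -1.09 for Pdgfa.

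The growth factors called between the conditioned media showed a lower level of Csf3, a higher level of Fgf23 and a lower level of Pdgfa with shBrca2-CM than with shControl-CM. A gene was called where edgeR's adjusted p was under 0.1, the absolute log2 fold change over 0.5 and the mean normalized count over 5. By this rule 1 of the 9 genes, Fgf23, was called higher, where 1.58% of the 11035 genes tested were called higher. Csf3 and Pdgfa, 2 of the 9, were called lower, where 1.55% of all genes were. Against control medium, shControl-CM gave 5 genes called higher (Csf3, Fgf23, Hgf, Pdgfa and Vegfa), beside 18.2% of the 12086 genes tested, and 3 called lower (Csf1, Vegfb and Vegfc), beside 18.9%. With shBrca2-CM, 4 were called higher than with control medium (Csf3, Fgf23, Hgf and Vegfa), beside 18.6% of 12049 genes, and 2 lower (Csf1 and Vegfc), beside 19.2%. The comparisons against control medium share the same 2 control libraries, and nothing is read from these counts because the genes were selected with the contrasts known. All 9 counted genes passed the low-count filter in every comparison. In bulk RNA, fewer cells making a transcript and less transcript per cell cannot be told apart.

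**Figure D1:**
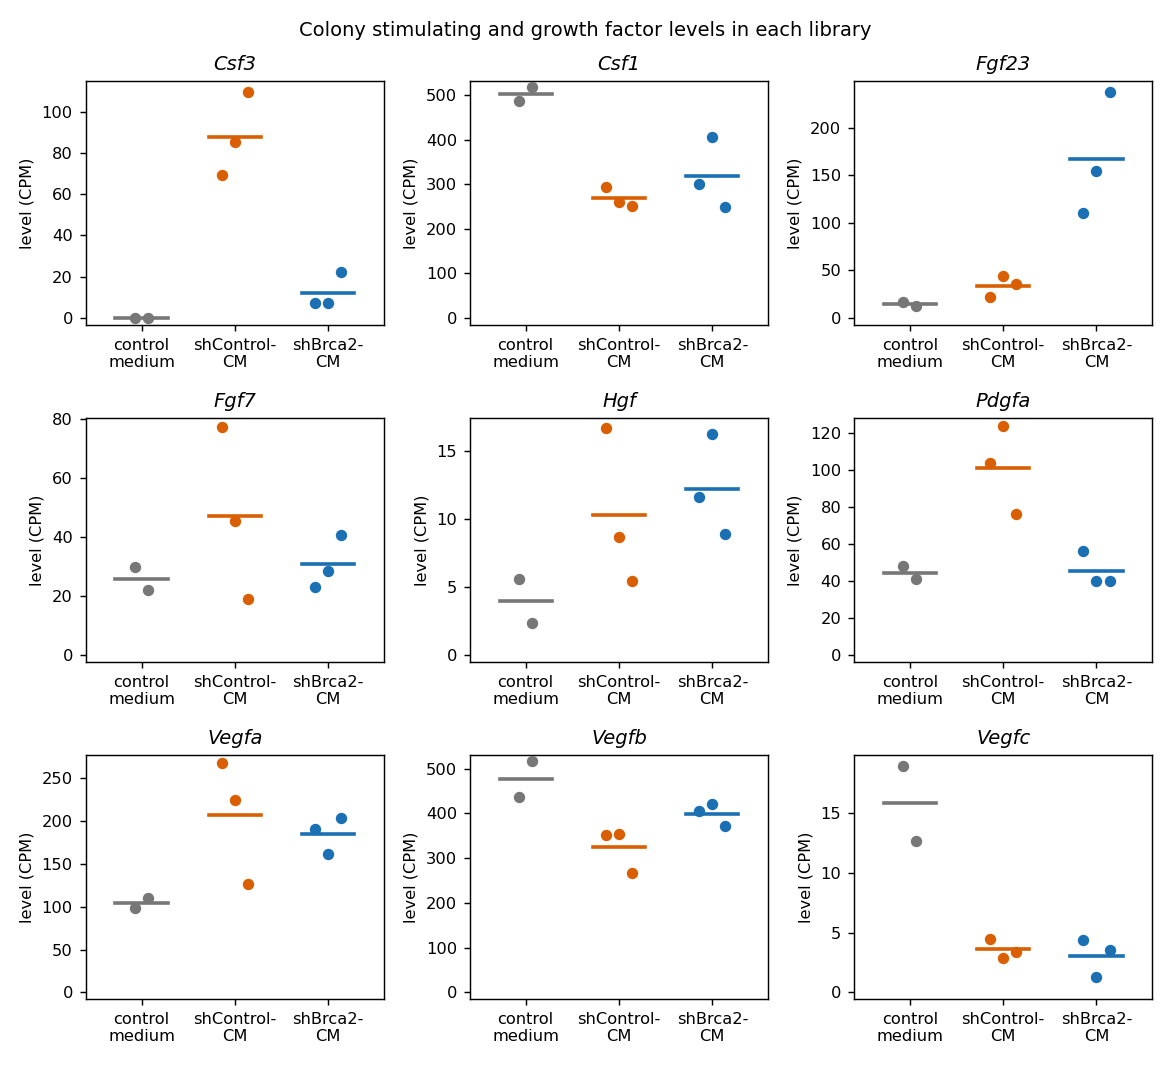
Level in CPM (linear axis) of each of the 9 counted genes in each library, with control medium in grey (2 domes), shControl-CM in orange (3 domes) and shBrca2-CM in blue (3 domes). Points are libraries and lines are group means. Csf3 lies at 0 in both control libraries, Fgf23 is highest in the 3 shBrca2-CM libraries (110 to 238 CPM), and Pdgfa is highest in the 3 shControl-CM libraries (76.1 to 124 CPM).

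**Figure D2:**
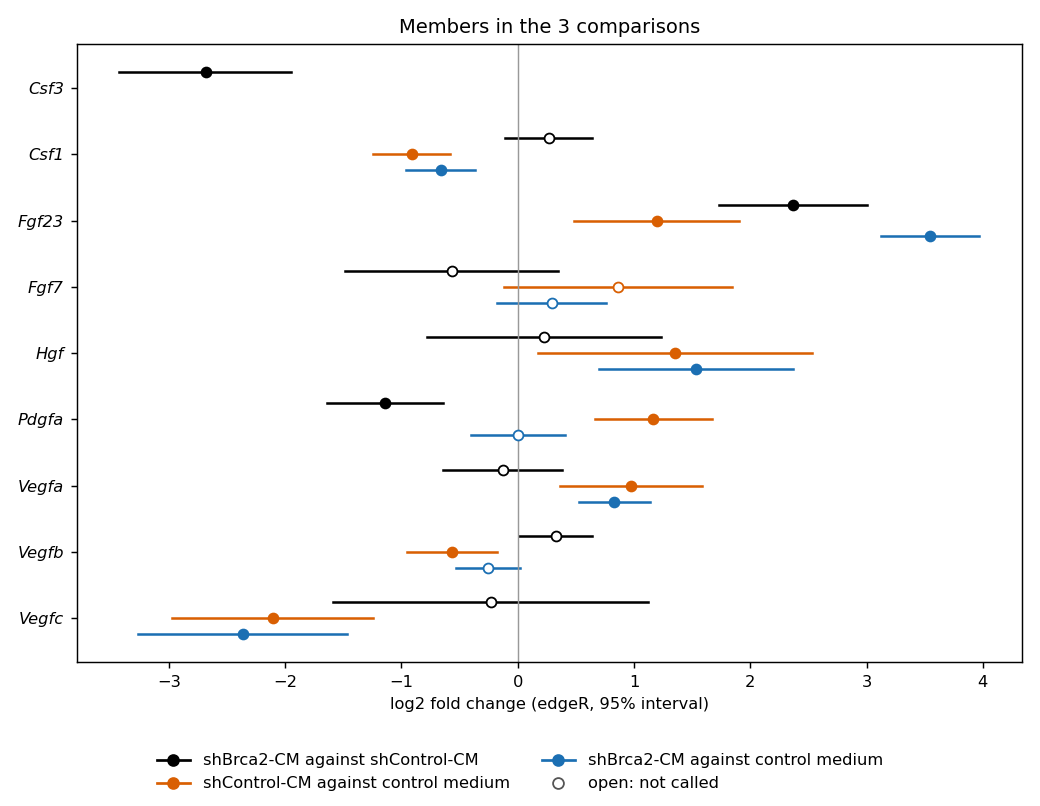
Log2 fold change of each gene in the 3 comparisons, from edgeR, with 95% intervals; filled points were called and open points were not. Csf3 is drawn for the conditioned media only, since it had no count in control medium. Csf3, Fgf23 and Pdgfa are the genes with filled points between the conditioned media.

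Promoter windows are shown for Fgf23 and Pdgfa, which were called between the conditioned media. Both have windows in the RefSeq promoter set (GRCm38.p6, the build mm10 named in the submitters' notes). Csf3, also called, has a gene position in RefSeq but no window in that set. Each window runs from 250 bases before to 50 bases after an annotated start and is printed in the direction of transcription. Fgf23 has 1 window, chr6:127072652-127072951 on the plus strand, and Pdgfa has 2 on the minus strand, chr5:138994232-138994531 and chr5:138994895-138995194. Capitals mark matches to the motifs searched.
Fgf23: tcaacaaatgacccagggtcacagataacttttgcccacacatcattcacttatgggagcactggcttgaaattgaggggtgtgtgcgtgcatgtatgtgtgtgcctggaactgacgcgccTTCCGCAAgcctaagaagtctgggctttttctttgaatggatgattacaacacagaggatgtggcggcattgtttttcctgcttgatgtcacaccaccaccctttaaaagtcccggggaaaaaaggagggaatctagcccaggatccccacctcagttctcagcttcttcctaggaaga
Pdgfa, chr5:138994232-138994531: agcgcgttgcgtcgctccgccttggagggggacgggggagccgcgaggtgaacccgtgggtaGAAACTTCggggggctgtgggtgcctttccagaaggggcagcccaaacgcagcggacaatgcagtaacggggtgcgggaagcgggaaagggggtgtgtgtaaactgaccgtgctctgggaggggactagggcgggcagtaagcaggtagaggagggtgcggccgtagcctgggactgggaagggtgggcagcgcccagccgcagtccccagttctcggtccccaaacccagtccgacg
Pdgfa, chr5:138994895-138995194: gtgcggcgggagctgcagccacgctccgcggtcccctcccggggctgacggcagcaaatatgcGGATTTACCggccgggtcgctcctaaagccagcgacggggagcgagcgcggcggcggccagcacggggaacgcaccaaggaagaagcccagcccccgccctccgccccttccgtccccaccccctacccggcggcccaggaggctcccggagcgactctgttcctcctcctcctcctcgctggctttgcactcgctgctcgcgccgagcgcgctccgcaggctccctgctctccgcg
Both strands were searched for GGANTTNCC (NF-kB), TGANTCA (AP-1), TTGCNNAA (C/EBP), GAANNTTC (heat shock element) and ACGTG (hypoxia response). The Fgf23 window held a C/EBP match that begins 129 bases before the start, a motif found in 10.8% of the 32851 promoter windows of the same length. The Pdgfa windows held a heat shock element match, 188 bases before the start, and an NF-kB match, 187 bases before the start, found in 7.86% and 3.95% of all windows. Among the other genes, matches lay in a window of Csf1 (NF-kB), Vegfc (C/EBP) and Vegfa (hypoxia response, in 19.6% of all windows), and AP-1, in 7.81% of all windows, had no match. GC content was 49.0% in the Fgf23 window, below the median of 52.7% over all windows, and 67.0% and 73.3% in the Pdgfa windows. A match is a run of letters, and binding was not measured here.

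Csf3 (chromosome 11, 98700183 to 98703631) encodes G-CSF, the main growth factor of neutrophils. It had 0 counts in both control libraries. With shBrca2-CM it stood at 7.23, 7.47 and 22.2 CPM, from 5, 6 and 25 counts. With shControl-CM it stood at 69.2, 85.0 and 109 CPM, from 108, 88 and 161 counts. The 3 groups did not overlap, and the highest shBrca2-CM dome stayed below the lowest shControl-CM dome. The mean was 12.3 ± 8.57 CPM (SD, n = 3) with shBrca2-CM and 87.9 ± 20.2 CPM (SD, n = 3) with shControl-CM, 6.43-fold lower in the fit (log2 fold change -2.68, SE 0.34, edgeR adjusted p = 0.00116). Against the higher floor of the control libraries, 0.645 CPM, the mean was at least 19.1-fold higher with shBrca2-CM and at least 136-fold higher with shControl-CM; taking the lowest dome of each group, these bounds were 11.2 and 107. Csf3 was called in each of the 6 fits between the conditioned media that left out 1 library, at log2 fold changes of -3.52 (without shBrca2-CM replicate 3) to -2.43.

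Csf1 (chromosome 3, 107741048 to 107760469) encodes M-CSF, the macrophage growth factor. Its levels were 485 and 518 CPM with control medium. They were 299, 406 and 249 CPM with shBrca2-CM and 293, 260 and 251 CPM with shControl-CM. All 6 CM domes lay below both control domes, and the shControl-CM values fell within the range of the shBrca2-CM values. Csf1 fell 1.58-fold with shBrca2-CM (log2 fold change -0.66, SE 0.15, edgeR adjusted p = 0.000228) and 1.88-fold with shControl-CM (-0.91, SE 0.15, adjusted p = 0.00163) relative to control medium. The CM groups differed by 0.27 on the log2 scale, with a 95% interval of -0.11 to 0.64 (adjusted p = 0.559).

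Of 12 colony stimulating factors, related ligands and receptors listed, 8 were counted. In the fit between the conditioned media 7 were tested, and Csf3 was the only one called (median log2 fold change 0.25, against 0.03 over all genes). With shControl-CM against control medium, 3 of 8 were called higher and 3 lower (median -0.29, all genes -0.10), and with shBrca2-CM 1 was higher and 2 lower (median -0.05, all genes -0.05). Csf1r, the receptor of CSF1, had 14 and 9 counts with control medium, 0, 1 and 4 with shBrca2-CM, and 11, 8 and 20 with shControl-CM. Its pooled rate was 4.34 times that of control medium with shControl-CM (95% counting interval 2.53 to 7.61), which was called, and 0.863 times with shBrca2-CM (0.256 to 2.32), which was not. The rate of Csf1r with shBrca2-CM was 0.199 times that with shControl-CM (0.0612 to 0.505), and it was not called (edgeR adjusted p = 0.134). Kitl, which encodes stem cell factor, was called lower with each CM than with control medium, at pooled ratios of 0.243 (0.0871 to 0.548) with shBrca2-CM and 0.0783 (0.0159 to 0.236) with shControl-CM. Il34, a second ligand of the CSF1 receptor, was called lower with shControl-CM, at a pooled ratio of 0.266 (0.111 to 0.55), while the ratio was 0.67 (0.341 to 1.21) with shBrca2-CM, and Il34 was not called between the conditioned media (adjusted p = 0.512). Csf2rb, the common beta chain of the GM-CSF receptor, was called higher with shControl-CM, at 4, 6 and 2 counts against 6 and 1 in the deeper control libraries (pooled ratio 4.39, 1.59 to 13.1). With shBrca2-CM its counts were 1, 3 and 3 and the pooled ratio 3.97 (1.19 to 13.3, edgeR adjusted p = 0.0861), not called because the mean normalized count of 3.19 was under the minimum. The shControl-CM calls of Il34 and Csf2rb were not made by DESeq2 (adjusted p = 0.142 and 0.192 by the likelihood ratio test).

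Fgf23 (chromosome 6, 127072902 to 127082296) encodes the phosphate-lowering hormone described above, and its promoter window is the first of those printed. It was low with control medium, at 16.3 and 12.7 CPM. With shControl-CM it was at 22.4, 44.5 and 35.3 CPM, and with shBrca2-CM at 110, 154 and 238 CPM. The ranges of the 3 groups did not overlap. Group means were 14.5 ± 2.58 CPM (SD, n = 2), 34.1 ± 11.1 CPM (SD, n = 3) and 167 ± 65.0 CPM (SD, n = 3), respectively. With shBrca2-CM Fgf23 was 5.16-fold higher than with shControl-CM (log2 fold change 2.37, SE 0.29, edgeR adjusted p = 0.000941) and 11.7-fold higher than with control medium (3.55, SE 0.21, adjusted p = 6.86e-22). With shControl-CM it was 2.29-fold higher than with control medium (1.20, SE 0.32, adjusted p = 0.0175). With 1 control library left out, the spread comes from the CM domes alone and the remaining control library is assumed to vary like them. This last call was not made in either such fit, at log2 fold changes of 1.42 (adjusted p = 0.105) without replicate 1 and 1.03 (0.174) without replicate 2. With thinned libraries the log2 fold changes against control medium were 1.93 with shControl-CM and 4.37 with shBrca2-CM, both called. The call between the conditioned media was made in all 6 fits with 1 library left out, at 2.02 to 2.58.

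Fgf7 (chromosome 2, 126034658 to 126091185) encodes keratinocyte growth factor, a stromal signal to epithelium. The control libraries had 29.9 and 22.1 CPM. The shBrca2-CM libraries had 23.2, 28.6 and 40.8 CPM, and the shControl-CM libraries 77.5, 45.4 and 19.0 CPM. The shControl-CM domes held both the highest and the lowest value of all 8 libraries, so the groups overlapped throughout. Fgf7 was called in none of the 3 comparisons when each pair of groups was fitted alone: its log2 fold change was -0.57 between the conditioned media (95% interval -1.48 to 0.35, edgeR adjusted p = 0.628), 0.86 with shControl-CM against control medium (-0.12 to 1.84, adjusted p = 0.16) and 0.29 with shBrca2-CM (-0.18 to 0.76, adjusted p = 0.345). Without shControl-CM replicate 3 it was called lower with shBrca2-CM than with shControl-CM (-0.96, adjusted p = 0.0467) and higher with shControl-CM than with control medium (1.27, adjusted p = 0.000175). A joint fit of the 3 groups also made the latter call (0.86, adjusted p = 0.0889).

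Among 22 FGF ligands listed, 7 were counted. Fgf23 was the only one of the 6 tested that was called between the conditioned media (median log2 fold change 0.11, all genes 0.03). Each CM gave 3 of 7 called higher than control medium and 0 called lower by edgeR or DESeq2 (1 lower at an unadjusted p under 0.05), with medians of 1.02 for shControl-CM (all genes -0.10) and 1.44 for shBrca2-CM (all genes -0.05). The latter was Fgf18, with unadjusted p of 0.0114 and 0.0303 and a mean normalized count under the minimum. Fgf1, an FGF without a secretion signal, rose from 4.52 and 4.30 CPM with control medium to 14.5, 17.4 and 23.1 CPM with shBrca2-CM (4.25-fold, edgeR adjusted p = 1.45e-06) and to at least 21.8 CPM in each shControl-CM library (5.34-fold, adjusted p = 0.000387). Fgf10, a close relative of Fgf7, was called 2.89-fold higher with shBrca2-CM (adjusted p = 0.0098), while its log2 fold change of 1.02 with shControl-CM was not called (adjusted p = 0.127). Fgf11, which acts inside the cell, was called with shControl-CM, at 14 counts in all against 7 in the control libraries (pooled ratio 5.12, 1.93 to 15); DESeq2 did not make this call (adjusted p = 0.124 by the likelihood ratio test).

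Of 7 FGF receptors and coreceptors listed, 4 were counted. Between the conditioned media 0 were called by edgeR or DESeq2, and 0 had an unadjusted p under 0.05 (median log2 fold change -0.11, all genes 0.03). Against control medium, edgeR called 1 lower with shControl-CM (median 0.08, all genes -0.10) and 0 with shBrca2-CM, where DESeq2 also called 0 and 0 had an unadjusted p under 0.05 (median -0.05, all genes -0.05). Fgfr1, the receptor that binds FGF23 together with Klotho, stood at 72.0 and 69.9 CPM with control medium, 69.4, 73.4 and 66.6 CPM with shBrca2-CM, and 69.8, 87.0 and 62.5 CPM with shControl-CM. Its 95% intervals spanned -0.43 to 0.36, -0.40 to 0.45 and -0.37 to 0.32 on the log2 scale in the 3 comparisons. Fgfr2, which includes the receptor of FGF7, was called lower with shControl-CM, from 55 counts in the control libraries to 1, 0 and 4 counts (pooled ratio 0.233, 0.0726 to 0.576), a call that DESeq2 did not make. The coreceptor genes Kl and Klb were not analysed here. Of 6 genes listed for enzymes and regulators that act on FGF23 protein, 3 were counted, with 2 called higher with shControl-CM than with control medium (median 0.53, all genes -0.10) and 1 with shBrca2-CM (median 0.46, all genes -0.05). Fam20c, a secretory pathway kinase that phosphorylates FGF23, was 7.47-fold higher with shControl-CM (edgeR adjusted p = 3.78e-06) and 5.45-fold higher with shBrca2-CM (adjusted p = 1.28e-20) than with control medium. Between the conditioned media the groups did not overlap, at 389 to 449 CPM with shBrca2-CM and 516 to 642 CPM with shControl-CM. The log2 fold change of -0.44 was not called (edgeR adjusted p = 0.12). DESeq2 gave -0.46, below the fold required, with adjusted p = 0.071 by the likelihood ratio test. Furin, a protease that cleaves FGF23 and other precursors, was called with shControl-CM (1.45-fold higher, adjusted p = 0.0325) and was 1.37-fold higher with shBrca2-CM, below the fold required.

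Hgf (chromosome 5, 16553495 to 16619439) encodes the ligand of the MET receptor, which drives epithelial growth and movement. With control medium it stood at 5.56 and 2.37 CPM, from 32 and 11 counts. With shBrca2-CM it stood at 11.6, 16.2 and 8.88 CPM, and with shControl-CM at 16.7, 8.70 and 5.43 CPM, from 8 to 26 counts in each of these libraries. All 3 shBrca2-CM values lay above the control values, whereas the lowest shControl-CM value lay within the control range. Hgf was 2.9-fold higher with shBrca2-CM than with control medium (log2 fold change 1.54, SE 0.42, edgeR adjusted p = 0.00221), and was called in the 5 fits that left out 1 library, at 1.10 to 2.30, the highest without control medium replicate 1. With shControl-CM it was 2.55-fold higher (1.35, SE 0.53, adjusted p = 0.0755). The latter call was lost in 4 of the 5 fits that left out 1 library, 2 of them with a control arm of 1 library, and the log2 fold change ranged from 0.74 without shControl-CM replicate 1 to 2.12 without control medium replicate 1. It was also lost with DESeq2 (adjusted p = 0.184 by the likelihood ratio test), with scaling by total counts and with thinned libraries. The difference between the conditioned media was 0.23, with an interval of -0.78 to 1.23 (adjusted p = 0.888).

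Of 10 genes listed for the activation and receptor of HGF, 6 were counted. The 5 tested between the conditioned media gave 0 calls by edgeR or DESeq2, and 1, Spint1, had an unadjusted p under 0.05. Met, the receptor, was called lower with each CM. It had 57 and 66 counts with control medium, 3, 3 and 8 with shBrca2-CM (pooled ratio 0.452, 0.24 to 0.787) and 4, 3 and 4 with shControl-CM (0.229, 0.111 to 0.424). The shBrca2-CM call of Met was not made by DESeq2's Wald test (adjusted p = 0.135). Plat, tissue plasminogen activator, fell from 208 and 231 CPM to 86.8, 132 and 137 CPM with shBrca2-CM (1.83-fold, edgeR adjusted p = 7.39e-06) and to 111, 95.7 and 74.0 CPM with shControl-CM (2.36-fold, adjusted p = 0.00115). Spint1, an inhibitor of the proteases that activate HGF, was called higher with each CM, at pooled ratios of 4.33 (1.75 to 10.8) with shBrca2-CM and 11.6 (5.97 to 24.8) with shControl-CM. The median of the list was 0.38 between the conditioned media (all genes 0.03), -0.30 with shControl-CM (all genes -0.10) and 0.48 with shBrca2-CM (all genes -0.05), with 2 of 6 higher and 2 lower in each comparison with control medium.

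Vegfa (chromosome 17, 46016993 to 46032377) encodes the main growth factor of blood vessels. It stood at 98.9 and 111 CPM with control medium, at 191, 162 and 203 CPM with shBrca2-CM, and at 269, 225 and 126 CPM with shControl-CM. All 6 CM domes lay above the control domes, and the CM groups overlapped. Vegfa was 1.78-fold higher with shBrca2-CM (log2 fold change 0.83, SE 0.15, edgeR adjusted p = 1.06e-05) and 1.96-fold higher with shControl-CM (0.97, SE 0.28, adjusted p = 0.0222). With a control arm of 1 library the shControl-CM call was not made, at 0.91 without control medium replicate 1 (adjusted p = 0.185) and 1.05 without replicate 2 (0.133). The CM groups differed by -0.13, with an interval of -0.64 to 0.38 (adjusted p = 0.873).

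Vegfb (chromosome 19, 6982472 to 6987651), a ligand of FLT1, stood at 437 and 517 CPM with control medium. It stood at 407, 422 and 371 CPM with shBrca2-CM and at 352, 355 and 266 CPM with shControl-CM. The 3 groups did not overlap, with control medium highest and shControl-CM lowest. Vegfb fell 1.48-fold with shControl-CM relative to control medium (log2 fold change -0.56, SE 0.18, edgeR adjusted p = 0.0334). That value is close to the fold required, and the call was lost without shControl-CM replicate 3 (-0.43). It was also not made with a control arm of 1 library, at -0.66 without control medium replicate 1 (adjusted p = 0.107) and -0.44 without replicate 2 (adjusted p = 0.237). The differences of -0.26 with shBrca2-CM against control medium (adjusted p = 0.14) and of 0.33 between the conditioned media (interval 0.01 to 0.64, adjusted p = 0.354) were not called.

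Vegfc (chromosome 8, 54077532 to 54186454) encodes a growth factor of lymphatic vessels. It had 109 and 59 counts with control medium, or 18.9 and 12.7 CPM. With shBrca2-CM it had 3, 1 and 4 counts, and with shControl-CM 7, 3 and 5, or 1.24 to 4.49 CPM over the 6 libraries. All CM domes lay below the control domes, and the CM groups overlapped near the floor. The pooled rate was 0.189 times that of control medium with shBrca2-CM (95% counting interval 0.0803 to 0.381) and 0.228 times with shControl-CM (0.125 to 0.388), and both were called (edgeR adjusted p = 1.89e-05 and 0.00308). The ratio of the CM groups was 0.828, with a counting interval of 0.304 to 2.08, so a difference of about that size was not detectable at this depth.

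Of 11 symbols listed for the VEGF family and its receptors, 10 were counted. Of 9 tested between the conditioned media, 1 was called higher with shBrca2-CM and 1 lower (median -0.23, all genes 0.03). With shControl-CM 3 of 10 were higher than with control medium and 4 lower (median -0.10, all genes -0.10), and with shBrca2-CM 1 was higher and 3 lower (median -0.25, all genes -0.05). Vegfd, another lymphatic growth factor of the family, was called in all 3 comparisons. It stood at 293 and 275 CPM with control medium, at 33.3, 57.2 and 36.4 CPM with shBrca2-CM and at 10.9, 19.3 and 14.9 CPM with shControl-CM, with no overlap between groups. It was 6.73-fold lower with shBrca2-CM (edgeR adjusted p = 2.94e-20) and 19.4-fold lower with shControl-CM (adjusted p = 1.22e-06) than with control medium, and 2.9-fold higher with shBrca2-CM than with shControl-CM (adjusted p = 0.0216). Nrp2, a coreceptor for VEGF-C, was 1.51-fold lower with shBrca2-CM than with shControl-CM (176, 188 and 206 CPM against 327, 297 and 256 CPM, adjusted p = 0.0535). Nrp1, a coreceptor for VEGF-A, was called lower with each CM than with control medium; its shControl-CM counts were 16, 9 and 0, and it was not called between the conditioned media (adjusted p = 0.191). Flt4, the receptor of VEGF-C, was called higher with shControl-CM than with control medium, where 11 of the 15 counts came from replicate 1 (pooled ratio 6.39, 2.34 to 20.1). DESeq2 made neither shControl-CM call against control medium, with adjusted p = 0.155 for Nrp1 and 0.126 for Flt4 by the likelihood ratio test. Flt1 was not called in any comparison, at 6.21 to 26.1 CPM over the 8 libraries, and Kdr had 14 and 11 counts with control medium, 2 over the 3 shControl-CM libraries and 0 in each shBrca2-CM library, with a mean normalized count under the minimum.

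Genes for the processing of VEGF-C were listed as 6 symbols, of which 4 were counted. The conditioned media gave 0 calls among them by edgeR or DESeq2, with 1 gene higher and 1 lower at an unadjusted p under 0.05 (median -0.15, all genes 0.03). Against control medium, 2 were higher with shControl-CM (median 0.09, all genes -0.10), and 2 were higher and 1 lower with shBrca2-CM (median 0.49, all genes -0.05). Ccbe1, which assists the cleavage of VEGF-C, was called higher with each CM than with control medium, at pooled ratios of 4.23 (1.96 to 9.19) with shBrca2-CM and 13.5 (7.69 to 25.2) with shControl-CM. Its shControl-CM counts were 48, 23 and 8, so the domes of that group differed several fold. Pcsk7, a proprotein convertase, was called lower with shBrca2-CM than with control medium (log2 fold change -0.79, edgeR adjusted p = 0.00182), and Adamts14 was called higher (0.52, adjusted p = 0.0957) by edgeR but not by DESeq2.

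Pdgfa (chromosome 5, 138976014 to 139000792) encodes the A chain of PDGF, and its 2 promoter windows are printed above. It stood at 48.0 and 41.1 CPM with control medium and at 56.4, 39.8 and 39.9 CPM with shBrca2-CM. With shControl-CM it stood at 104, 124 and 76.1 CPM. The shControl-CM domes lay above all others, whereas the shBrca2-CM and control ranges overlapped. Pdgfa was 2.2-fold lower with shBrca2-CM than with shControl-CM (log2 fold change -1.14, SE 0.23, edgeR adjusted p = 0.0216). It was 2.25-fold higher with shControl-CM than with control medium (1.17, SE 0.23, adjusted p = 0.00386). With shBrca2-CM against control medium the log2 fold change was 0.00, with a 95% interval of -0.40 to 0.41. The call between the conditioned media was lost without shBrca2-CM replicate 2 (-1.06, adjusted p = 0.176) or replicate 3 (-1.04, adjusted p = 0.166), with little change in the fold.

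All 7 genes listed for the PDGF family were counted. In the fit of the conditioned media 1 of 6 tested was called higher and 2 lower (median -0.17, all genes 0.03), with shControl-CM 1 of 7 was higher than with control medium and 2 lower (median -0.22, all genes -0.10), and with shBrca2-CM 1 was higher and 3 lower (median -0.84, all genes -0.05). Pdgfra, the receptor of PDGF-AA, ran opposite to Pdgfa between the conditioned media: it was at 60.8, 90.8 and 71.9 CPM with shBrca2-CM and at 46.8, 40.6 and 38.7 CPM with shControl-CM, 1.8-fold higher with shBrca2-CM (edgeR adjusted p = 0.0519), a call that DESeq2 did not make. Relative to control medium (46.9 and 50.7 CPM) it was 1.53-fold higher with shBrca2-CM (adjusted p = 0.0046). Pdgfrl, a receptor-like protein without a kinase domain, was 2.11-fold lower with shBrca2-CM than with shControl-CM (adjusted p = 0.0302). Pdgfrb, a fibroblast marker and receptor of PDGF-BB, was not called in any comparison, at 220 to 418 CPM over the 8 libraries. Pdgfb and Pdgfc were called lower with each CM than with control medium, at pooled ratios of 0.275 (0.108 to 0.588) and 0.441 (0.228 to 0.784) with shBrca2-CM and 0.304 (0.152 to 0.554) and 0.481 (0.29 to 0.763) with shControl-CM. With shControl-CM DESeq2 made neither call (adjusted p = 0.104 for Pdgfb and 0.212 for Pdgfc by the likelihood ratio test), and with shBrca2-CM it did not call Pdgfc (0.117).

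**Figure D3:**
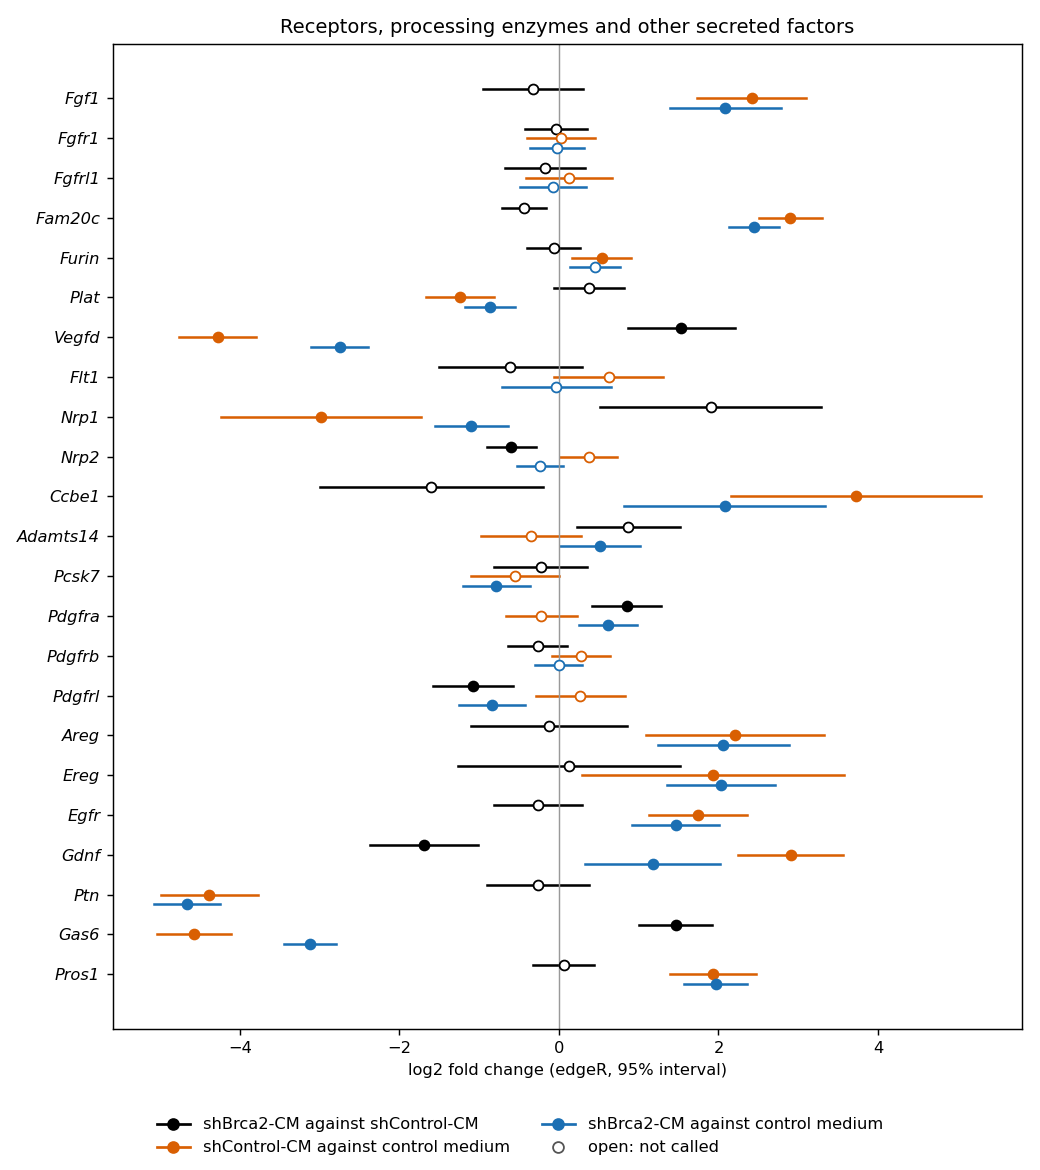
Log2 fold change, from edgeR with 95% intervals, of 23 receptors, processing enzymes and other secreted factors with a mean of at least 10 CPM, in the 3 comparisons; filled points were called and open points were not. Black filled points, for the conditioned media, lie right of 0 for Vegfd, Pdgfra and Gas6 and left of 0 for Nrp2, Pdgfrl and Gdnf.

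Growth factors outside these families were listed for context. Of 15 EGF family ligands and receptors, 9 were counted, and the 6 tested between the conditioned media gave 0 calls by edgeR or DESeq2 and 1 gene with an unadjusted p under 0.05 (median -0.19, all genes 0.03). Each CM gave 4 of 9 higher and 1 lower than control medium, with medians of 0.24 for shControl-CM and 0.28 for shBrca2-CM. The ligands Areg (4.17-fold, edgeR adjusted p = 3.99e-05) and Ereg (4.1-fold, adjusted p = 1.35e-06) and the receptor Egfr (2.76-fold, adjusted p = 1.2e-05) were higher with shBrca2-CM. With shControl-CM these 3 genes were 4.61-fold, 3.82-fold and 3.35-fold higher, although Ereg had 65 counts in 1 shControl-CM dome and 4 and 10 in the others and was not called there by DESeq2 (adjusted p = 0.15 by the likelihood ratio test). Nrg1 was called lower with each CM, at pooled ratios of 0.171 (0.0456 to 0.452) and 0.33 (0.165 to 0.604), the latter, with shControl-CM, not by DESeq2's Wald test (adjusted p = 0.106). Gdnf, the glial cell line-derived neurotrophic factor, stood at 4.34 and 4.08 CPM with control medium, at 10.1, 12.4 and 7.10 CPM with shBrca2-CM and at 29.5, 36.7 and 30.6 CPM with shControl-CM. It was 3.24-fold lower with shBrca2-CM than with shControl-CM (adjusted p = 0.0133), and the groups did not overlap.

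Of 10 other secreted growth factors, 9 were counted, and Gas6 was the only one of 7 tested that was called between the conditioned media (median -0.08). At an unadjusted p under 0.05, 2 of them were higher with shBrca2-CM. Each CM gave 1 of 9 higher and 3 lower than control medium (medians -0.93 for shControl-CM and -0.84 for shBrca2-CM). Gas6, a ligand of the TAM receptor kinases, was at 826 and 610 CPM with control medium, at 63.7, 88.4 and 92.3 CPM with shBrca2-CM and at 28.8, 25.1 and 36.0 CPM with shControl-CM. It was 2.76-fold higher with shBrca2-CM than with shControl-CM (edgeR adjusted p = 0.00279). Pros1, the related TAM ligand, was 3.91-fold higher with shBrca2-CM and 3.81-fold higher with shControl-CM than with control medium (adjusted p = 1.95e-12 and 0.000374). Ptn, which encodes pleiotrophin, was 25.3-fold and 20.9-fold lower, respectively (adjusted p = 6.43e-28 and 3.84e-06). Angpt4 had 6, 6 and 5 counts with shBrca2-CM and 0, 0 and 4 with shControl-CM. Between these media it was not called (pooled ratio 6.6, 95% counting interval 2.15 to 26.9). Against control medium it was called lower with shControl-CM (0.102, 0.0273 to 0.27) and not called with shBrca2-CM (0.675, 0.378 to 1.14).

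Patterns across the 8 libraries were compared by Pearson's r of log2 CPM among 7915 genes with a mean of at least 10 CPM, as a description. Csf3 was most like Rarres2 (r = 0.996), Socs3 (0.995) and Slc11a2 (0.993), and Fgf23 was most like C4b (0.991), Rpl23 (0.979) and Pomk (0.976). The 8 points fall into the 3 medium groups, and they share depth and group, so these values rest largely on the differences between groups.

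**Figure D4:**
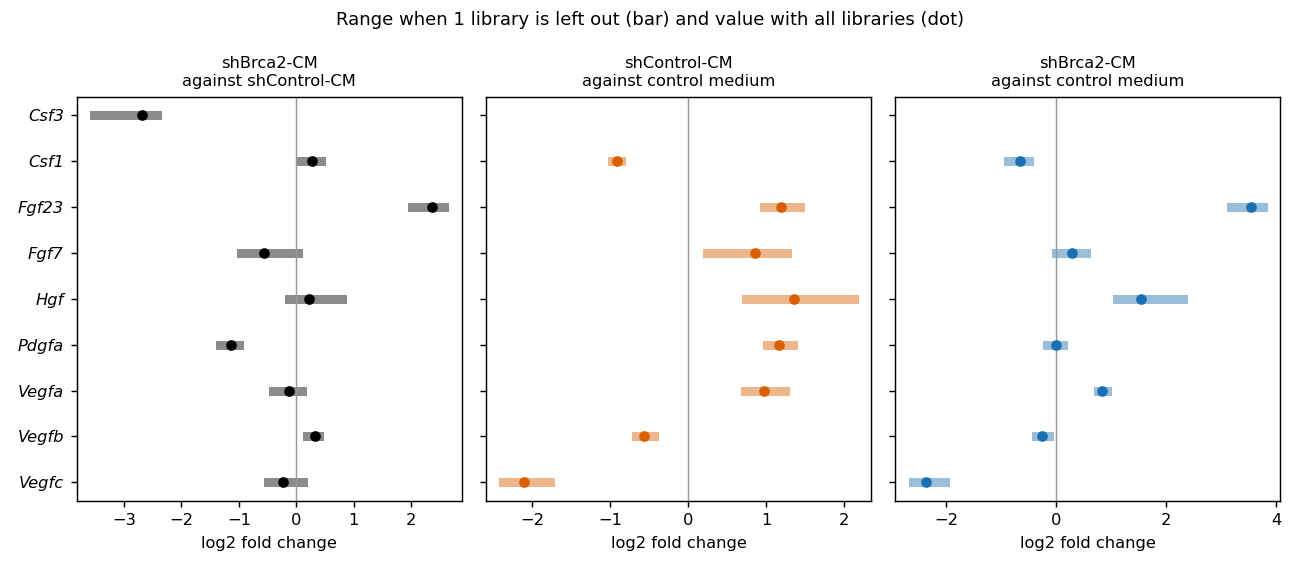
Log2 fold change of each counted gene with all libraries (dot) and the range over the fits that left out 1 library (bar), by comparison; Csf3 is drawn for the conditioned media only. In the panel of the conditioned media the bars of Csf3 (-3.52 to -2.43), Fgf23 (2.02 to 2.58) and Pdgfa (-1.33 to -0.99) stay on 1 side of 0, and those of Fgf7, Hgf, Vegfa and Vegfc cross it.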

How the data were processed

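MARS-seq libraries (3′ ends of mRNA) of 8 PSC domes were analysed, grouped by the sample titles and treatment labels. The file deposited by the authors holds raw read counts for 12160 genes, with 1 column per dome and no normalization or pooling; per the labels, bcl2fastq, cutadapt, STAR 2.4.2a, HTSeq and DESeq2 and the build mm10 were used, and the counting of strand and the treatment of molecular identifiers are not given in the sources used here. In the table, 1 further per-sample column, named like the control medium (DMEM) libraries, matched no sample and was not used. The labels give 20000 cells seeded per dome, and the study's Methods give a higher number.

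Each pair of groups was fitted alone in R 4.3.3 with edgeR 4.0.16 (TMM factors, a minimum of 10 counts per gene summed over the libraries in the fit, the quasi-likelihood test, and Benjamini-Hochberg adjustment over all genes tested). A call needed a mean normalized count over 5, an adjusted p under 0.1 and a log2 fold change beyond 0.5 in either direction. Where a group had 0 counts in every library, a floor of 3 counts per library gave a lower bound, and where libraries had 1 to 3 counts, pooled rates were compared with an exact 95% counting interval, which covers counting error only. Total counts of 655996 to 5476988 per library limit genes of low level most with shBrca2-CM. Alternatives were DESeq2 1.42.0, a replicate block, thinned libraries, a joint fit of the 3 groups, other filters, normalizations and thresholds, and each library left out in turn.

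The members and gene lists were chosen with earlier results of these data known. Named genes were all members, up to 4 further genes of each list that were called in at least 1 comparison, by the largest fold, counted receptors of members, and the 3 genes most like Csf3 and Fgf23. A gene that the rule names is not reported here. Fgf18 and Kdr were also named after their values were seen. Coordinates and promoters come from RefSeq GRCm38.p6. Csf3, Csf1, Fgf7, Hgf and Vegfc overlap other annotated genes, so reads there may be shared.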

Additional observations from a re-analysis of the deposited data

How the results depend on the processing

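Between the conditioned media, Csf3, Fgf23 and Pdgfa were called under each of the 10 settings that kept all libraries. With 1 library left out, the genes called ranged from 128 to 976 there (345 with all; the highest without shControl-CM replicate 1) and the members from 2 to 4. With shControl-CM against control medium the ranges were 1901 to 5157 genes and 4 to 8 members, both lowest without a control library, and with shBrca2-CM against control medium 3903 to 4510 genes and 6 members in every such fit. The stricter thresholds (adjusted p under 0.05, log2 fold change over 1) gave 130, 2375 and 2185 genes in the 3 comparisons, and 4 members with each CM against control medium (Csf1 and Vegfa were lost with shBrca2-CM, and Csf1, Hgf, Vegfa and Vegfb with shControl-CM). A joint fit of the 3 groups called 9 members with shControl-CM against control medium, Fgf7 included. Thinning to the smallest library gave 2919 genes there. With scaling by total counts, the median log2 fold change over all genes went from 0.03 to 0.14 between the conditioned media (-0.10 to -0.21 with shControl-CM against control medium) and the share of calls that were higher from 50.4% to 67.6%. With filterByExpr, Csf3 was not tested with shBrca2-CM against control medium, which left 5 members called.

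Sample numbers did not pair the domes: same-numbered deviations correlated at -0.036, 0.005 and 0.131 between the conditioned media. With a replicate block, 311, 4512 and 3850 genes and 3, 8 and 6 members were called; with shControl-CM against control medium Vegfb was lost (-0.43) and Fgf7 was gained (1.23).

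Directions turned for members that were not called. With 1 library left out, the log2 fold change between the conditioned media ranged from -0.964 to 0.033 for Fgf7, from -0.134 to 0.794 for Hgf, from -0.403 to 0.10 for Vegfa and from -0.484 to 0.11 for Vegfc, and Hgf was also -0.024 in 1 such fit. With shBrca2-CM against control medium the range was -0.165 to 0.121 for Pdgfa, with another value of -0.098, and -0.006 to 0.534 for Fgf7. Vegfc turned to 0.54 between the conditioned media with thinned libraries, and Pdgfa to -0.02 against control medium with no low-count filter. The cause was not tested. Among the members, with the stricter thresholds not counted, 353 alternative values kept direction and call, 18 lost the call, 4 gained it and 10 turned. Vegfc had 1 to 7 counts in each CM library.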
